A study of Mus musculus with 8 samples.

Results

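Translation initiation and elongation factors are the proteins that load ribosomes onto mRNAs and move them along the coding sequence. The genes described here are the rows of the deposited table whose symbol begins with Eif1 to Eif6, Eef1 or Eef2, apart from Eif4ebp1 and Eif4ebp2, and they number 76 of 56576 genes. They include the factor subunits themselves and genes that share the prefix, such as kinases and methyltransferases that act on the factors. The mRNAs bound to tagged ribosomes were sequenced from synaptosomes of the mouse cerebral cortex at postnatal day 15. Controls were Lhx6-Cre;Erbb4+/+;Rpl22HA/HA mice (4 libraries, replicates 1, 3, 4 and 5) and conditional mutants were Lhx6-Cre;Erbb4F/F;Rpl22HA/HA mice (4 libraries, replicates 2, 3, 4 and 5). Both genotypes carry Lhx6-Cre and are homozygous for Rpl22HA, an allele that adds a hemagglutinin tag to ribosomal protein L22 after Cre recombination. Lhx6-Cre recombines in interneurons that come from the preoptic area or from the medial ganglionic eminence (MGE), so deletion and tagging both depend on it, and other cells keep Erbb4 and untagged ribosomes. ErbB4 is a receptor tyrosine kinase that acts upstream of mTORC1, a regulator of translation, and the comparison asks how the ribosome-bound mRNAs of the factors differed without it.

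Reads counted on genes ranged from 51010687 to 80226984 in controls and from 58967504 to 74609576 in mutants. The factor genes took between 0.515% and 0.629% of them. All values are read counts divided by 1 size factor per library (normalized counts), given in the order control replicates 1, 3, 4, 5 and mutant replicates 2, 3, 4, 5. The methods of the study describe its biological replicates in general as samples from separate brains and litters, and the labels do not tie a library to an animal. The p-values measure the spread between these libraries. The libraries of the study were sequenced in more than 1 batch and no label assigns a library to a batch, so values inside a batch cannot be shown.

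Erbb4 itself had 1640, 5377, 4306 and 3034 normalized counts in controls and 1711, 1648, 1233 and 1048 in mutants. The library labelled control replicate 1 lay below mutant replicates 2 and 3, and the other controls lay above every mutant. The log2 fold change was -1.25 (95% interval -2.00 to -0.49). The limma p of Erbb4 adjusted over all genes tested was 0.58, so the deleted gene itself did not pass adjustment. An exact permutation test of its log2 values gave p = 0.0857. Each log2 fold change is on the log2(normalized count + 1) scale and comes from limma.

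Markers of the targeted cells were read in every library, and no marker was at 0 in any library. The 10 markers of MGE-derived interneurons summed to 47248, 82650, 47049 and 27693 normalized counts in controls and 40555, 41762, 19164 and 15920 in mutants, with Slc32a1 the most abundant. The 5 PV+ interneuron markers, led by Tac1, summed to 51367, 89846, 33181 and 17736 in controls and to 26743, 29614, 10600 and 8750 in mutants. The 5 SST+ interneuron markers, led by Sst, summed to 247573, 472518, 131238 and 51652 in controls and to 184218, 176167, 44222 and 15675 in mutants. All 3 sums were highest in control replicate 3 and lowest in mutant replicate 5, and the genotypes overlapped. Every one of these 20 markers had a log2 fold change under 0, with medians of -0.65, -1.42 and -1.32 in the 3 lists, and 2, 3 and 1 of them were called lower by the limma rule given with the factor genes.

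Markers of other cells were also present, some of them at higher counts, and none of the 8 libraries is of material before the pulldown. The 6 oligodendrocyte markers, led by Mbp, summed to 659871, 352720, 224894 and 317081 in controls and to 226305, 195276, 247568 and 280961 in mutants. Highest for them was the library labelled control replicate 1, lowest was mutant replicate 3, and the genotypes overlapped. All 6 had log2 fold changes below 0, with a median of -0.63, and 2 were called lower. The 6 endothelial and mural markers, led by Cldn5, summed to 119663, 202681, 148314 and 124452 in controls and to 195560, 184814, 182372 and 168571 in mutants, with a median log2 fold change of 0.53 and 2 called higher. The other lists had median log2 fold changes of -0.60 (CGE-derived interneurons, 7 markers led by Vip), -0.15 (excitatory neurons, 6 led by Slc17a7), -0.20 (astrocytes, 6 led by Slc1a3) and -0.37 (microglia, 6 led by Csf1r). The excitatory markers summed to 111935, 145382, 124534 and 148525 in controls and to 107415, 121817, 116517 and 133799 in mutants. In every library this was more than the sum of the MGE markers. In bulk samples such as these, fewer cells of a type and less RNA per cell cannot be told apart. The part of these markers in the values of the factor genes was not tested.

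**Figure D1:**
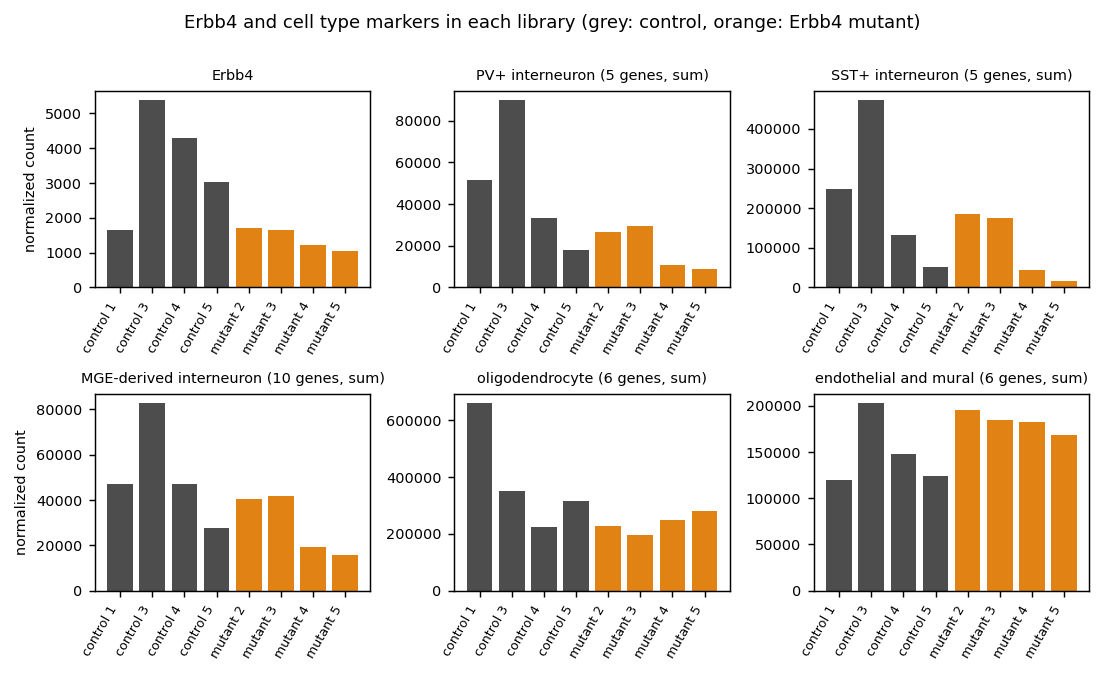
Normalized counts of Erbb4 and the summed normalized counts of 5 marker lists in each of the 8 libraries (grey bars, controls; orange bars, mutants). The interneuron sums are highest in control replicate 3 and lowest in mutant replicate 5, the oligodendrocyte sum is highest in the library labelled control replicate 1 at 659871, and Erbb4 in that library (1640) is below mutant replicates 2 and 3.

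Initiation begins when eIF2, charged with GTP and initiator tRNA, joins the small ribosomal subunit together with eIF1, eIF1A, eIF3 and eIF5, while the eIF4 proteins bind the mRNA cap and unwind the leader. eIF2B recharges eIF2 with GTP and is blocked when a stress kinase phosphorylates eIF2, and elongation then runs on eEF1A, which delivers aminoacyl-tRNA, its exchange complex eEF1B, and the translocase eEF2. Many of the elongation factor mRNAs, and several eIF3 mRNAs, start with a 5′ terminal oligopyrimidine tract and are translated under the control of mTORC1, which in neurons also operates in dendrites and at synapses.

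Sequences around the starts that RefSeq annotates for GRCm38.p6 are shown for the genes called lower, for the major elongation factors, for Eif3a as a subunit whose value lay on the other side of 0, and for the X and Y copies of the eIF2 gamma subunit. Each window holds 10 bases before the annotated start and 20 from it on, 5′ to 3′ on the strand of the gene, with runs of a C followed by at least 4 further C or T in capitals.
Eef1b2, chr1:63176821-63176850, + strand: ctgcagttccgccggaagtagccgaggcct
Eef1a2, chr2:181156996-181157025, - strand: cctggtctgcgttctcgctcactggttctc
Eef1a1, chr9:78481705-78481734, - strand: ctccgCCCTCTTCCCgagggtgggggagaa
Eef2, chr10:81176621-81176650, + strand: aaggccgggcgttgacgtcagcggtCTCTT
Eif3f, chr7:108934405-108934434, + strand: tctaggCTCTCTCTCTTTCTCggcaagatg
Eif3a, chr19:60790674-60790703, - strand: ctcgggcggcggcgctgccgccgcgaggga
Eif2s3x, chrX:94212632-94212661, - strand: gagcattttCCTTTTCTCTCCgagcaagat
Eif2s3y, chrY:1010585-1010614, + strand: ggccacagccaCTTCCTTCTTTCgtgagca
The run of Eif3f is 15 bases long and spans the annotated start, as does the 10-base run of Eef1a1. Eif2s3x and Eif2s3y each hold a 12-base run at or next to the start, and in Eef2 a run begins at base 16 of the transcript. The windows of Eef1b2, Eef1a2 and Eif3a hold none, so of the 6 elongation and eIF3 genes shown only Eef1a1 and Eif3f have a run at the annotated start. Among the factor genes tested, 51 matched the RefSeq table, and 26 of their 66 annotated starts (39.4%) held such a run on the strand of the gene, beside 35.8% of all 32851 starts in the table. A run is a match of letters in a window around an annotated start, and the start used in these cells was not measured. From earlier knowledge, 10 of the factor genes have mRNAs of the oligopyrimidine class (Eef1a1, Eef1b2, Eef1d, Eef1g, Eef2, Eif3a, Eif3e, Eif3f, Eif3h and Eif4b). Of these, 9 had log2 fold changes below 0, with a median of -0.38, though Eef1a1 and Eef2 were above 0 after quantile normalization.

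Of the 76 genes, 64 had a mean of at least 10 normalized counts in at least 1 genotype and were tested. The other 12 were Eif4e1b, Eef1akmt3, Eif2c5 and 9 members of the Eif1ad group, and 8 of them had no read in any library. A gene was called when its unadjusted limma p was at most 0.05 and its fold change at least 1.5. By this rule 3 of the 64 were called lower in mutants (Eef1b2, Eef1a2 and Eif3f), where 3.17% of the 31171 genes tested were called lower. Eef1b2 and Eif3f are among the 10 genes of the oligopyrimidine class. None of the 64 was called higher by limma, where 3.98% of all genes tested were. Without the fold threshold, 5 factor genes had an unadjusted limma p of at most 0.05, all of them lower (Eef1d and Eif4a2 in addition). At that p, 1175 of the 31171 genes tested were lower and 1421 higher. With the fold threshold, edgeR and DESeq2 also called 0 higher. Eif4g2, at 0.50 in both and so under that threshold, had an unadjusted p of 0.0474 with edgeR and 0.0282 with DESeq2. All 4 mutants lay below all 4 controls in 2 factor genes, beside 2.17% of all genes tested, and above them in 0, beside 2.76%. The adjusted p-values of limma were 0.58 or more for every factor gene tested, so none passed 0.05 after adjustment over all genes, nor did any with edgeR or DESeq2.

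The count of factor genes called lower depended on single libraries. It was 1 without control replicate 3, mutant replicate 4 or mutant replicate 5, where 1.77%, 1.84% and 1.65% of all genes tested were called lower. It was 2 without control replicate 1 (2.06% of all genes), 6 without control replicate 4 (4.93%) and 10 without control replicate 5 (6.35%), so the share over all genes moved in the same direction. With both control replicates 1 and 3 left out, a setting chosen after seeing the data, it was 0 (1.51% of all genes). The count called higher was 1 without control replicate 4 or control replicate 5 and 2 without mutant replicate 3 (Eif2ak4 and Eif4g2), where 5.75%, 5.75% and 4.28% of all genes were called higher.

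Across the 64 genes the median log2 fold change was -0.19 and 45 (70.3%) were below 0, where the median of all genes tested was 0.06 and 46.6% were below 0. Without control replicate 1 the median of the factor genes was -0.10 (all genes -0.01), and with library weights it was -0.08 (all genes 0.05). The median deviation of the 64 genes from their own 8-library mean was 0.34, 0.20, -0.08 and -0.06 in controls and -0.05, -0.04, -0.11 and -0.17 in mutants, on the log2 scale. Highest of the 8 were the library labelled control replicate 1 and control replicate 3. Without both of them the median log2 fold change of the factor genes was -0.01, where that of all genes tested was -0.03, and 32 of the 64 were below 0. These 2 libraries were picked because the factor genes were highest in them, so a shift of the control mean towards the mutants was built into the choice. The omission of both mutant replicates 4 and 5, given for single genes, was likewise picked from the values. Values from these 2 settings therefore describe how far the result rests on those libraries and do not test whether the genotypes differ. For Eif3f, Eef1a2 and Eef1g, mutant replicates 2 and 3 were both below control replicates 1 and 3, and mutant replicates 4 and 5 were both below control replicates 4 and 5, although the genotypes overlapped as a whole. Further factor genes had the same order, among them Eif3k, Eif3m, Eif3i, Eif3e, Eif1b, Eif4a1, Eif5a and Eif2s1. For Eif4g1, Eif4g2 and Eif4g3 both pairs of mutants were above the same pairs of controls. So they were for Eif3b, Eif2ak4 and the row that joins Eif4ebp3 with Ankhd1. These pairs were read from the values and no label defines them, and each of the 2 settings removes 1 genotype from a pair. How many of all genes tested had either order was not counted. The orders are therefore given as descriptions of single genes and not as a result about the factor genes.

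**Figure D2:**
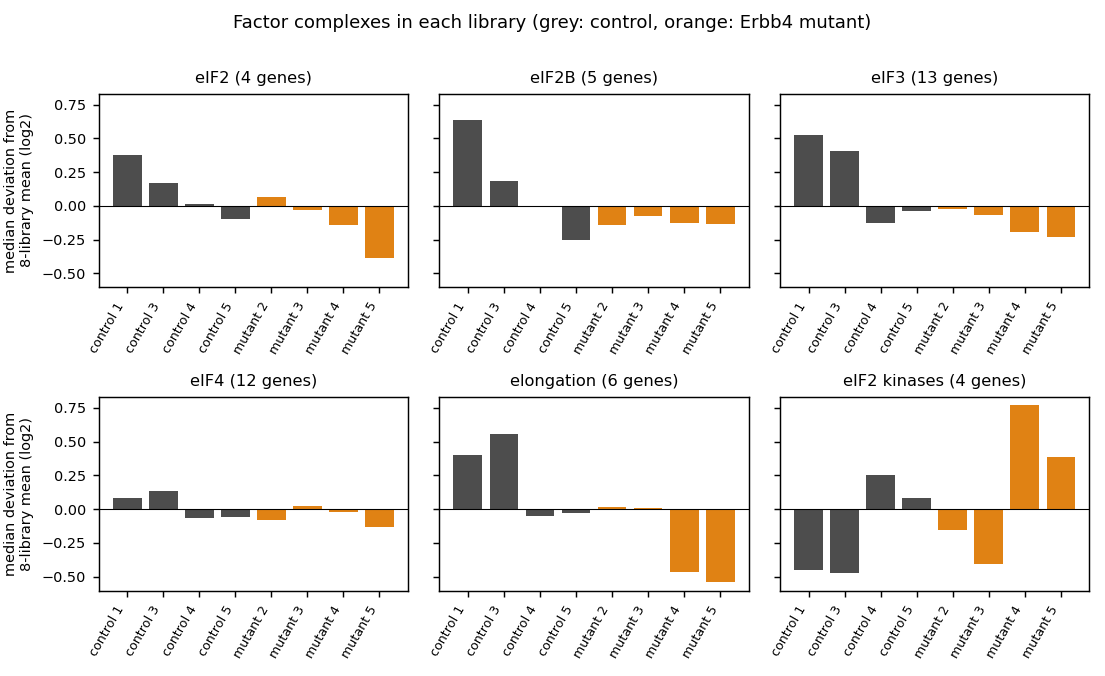
Median deviation of the genes of 6 factor groups from their own mean over the 8 libraries (vertical axis, log2 scale) in each library (grey bars, controls; orange bars, mutants). The eIF3 median is 0.53 and 0.41 in control replicates 1 and 3 and within 0.25 of 0 in the other 6 libraries, the elongation median is lowest in mutant replicates 4 and 5 (-0.46 and -0.54), and the eIF2 kinase median is highest in mutant replicate 4 (0.77).

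The 3 subunits of eIF2, the GTP-binding factor that brings initiator tRNA, gave small differences. Eif2s1, which encodes the alpha subunit that the stress kinases phosphorylate, had 2999, 3153, 2727 and 2495 normalized counts in controls and 2500, 2433, 2144 and 1834 in mutants. Mutant replicate 2 reached just above control replicate 5, and otherwise every mutant lay below every control. The log2 fold change was -0.36 (95% interval -0.76 to 0.05). Eif2s2, the beta subunit, gave -0.30 (95% interval -0.93 to 0.32), and -0.10 without mutant replicate 5. It was -0.01 with both control replicates 1 and 3 left out and 0.00 with both mutant replicates 4 and 5 left out. The gamma subunit is encoded on both sex chromosomes in mice. Its X copy, Eif2s3x, had 399, 409, 384 and 346 normalized counts in controls and 454, 701, 375 and 329 in mutants. Mutant replicate 3 stood above the rest, and the log2 fold change was 0.21 (95% interval -0.43 to 0.86), which was -0.0038 without that library. It was 0.36 without mutant replicate 5 and 0.55 with both mutant replicates 4 and 5 left out.

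The Y copy, Eif2s3y, had 803, 583, 678 and 583 normalized counts in controls and 287, 144, 1249 and 1155 in mutants. Controls were close together, mutant replicates 2 and 3 lay below all of them and mutant replicates 4 and 5 above all of them. Its log2 ratio to Eif2s3x was 1.01, 0.51, 0.82 and 0.75 in controls and -0.66, -2.27, 1.73 and 1.81 in mutants. The Y-linked Ddx3y had 1759, 3287, 2968 and 2867 normalized counts in controls and 2217, 542, 4367 and 4441 in mutants. Kdm5d, also Y-linked, had 158, 519, 703 and 780 in controls and 459, 150, 1385 and 1502 in mutants. Uty, likewise on the Y, had 45, 214, 491 and 230 in controls and 195, 94, 621 and 516 in mutants. Log2 fold changes differed in sign, at -0.27 for Ddx3y, 0.42 for Kdm5d and 0.60 for Uty, none of them called. Xist, transcribed from the inactive X of females, had 922, 1492, 3295 and 2074 in controls and 3647, 3964, 1665 and 2158 in mutants. Every library held reads of both Xist and Y-linked genes, with mutant replicates 2 and 3 highest for Xist and mutant replicates 4 and 5 highest for Ddx3y. The labels give no sex, and the study states that males and females were used alike. The fold change of Eif2s3y was not stable in sign, at -0.41 in the limma fit of all 8 libraries, 0.11 with edgeR, 0.40 with library weights and 0.19 without mutant replicate 3. With both mutant replicates 4 and 5 left out it was -1.68 and called lower.

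All 5 subunits of eIF2B, the exchange factor of eIF2, had log2 fold changes below 0, from -0.47 for Eif2b1 to -0.02 for Eif2b5, but Eif2b5 was above 0 after quantile normalization (0.04), with library weights (0.02) or, like Eif2b4, after adjustment for transcript length. Eif2b5 was also above 0 without control replicate 1 (0.03) or mutant replicate 2 (0.03), and Eif2b2 (0.04), Eif2b3 (0.15) and Eif2b4 (0.02) were with both control replicates 1 and 3 left out. None of the 5 was called. Eif2b1, a regulatory subunit, had 2086, 1120, 986 and 785 normalized counts in controls and 710, 936, 813 and 896 in mutants. The library labelled control replicate 1 lay far above the rest, and control replicate 5 lay inside the range of the mutants. Eif2b1 gave -0.19 without control replicate 1 and -0.08 without both control replicates 1 and 3, and it was called lower without control replicate 5 (-0.66). Eif2b5, the catalytic subunit, had 9990, 7736, 8966 and 9283 in controls and 8050, 8933, 9429 and 9020 in mutants, fully overlapping (95% interval of the log2 fold change -0.39 to 0.36). Eif2b2, Eif2b3 and Eif2b4 gave -0.32, -0.34 and -0.20. The median over the complex, -0.32, was -0.11 without control replicate 1, -0.08 after adjustment for transcript length or with library weights, and 0.02 with both control replicates 1 and 3 left out. Without control replicate 1, Eif2b3 gave -0.11 and Eif2b4 -0.02.

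Among the 4 kinases that phosphorylate eIF2, Eif2ak4 (GCN2, which senses uncharged tRNA) had 1666, 1983, 4361 and 4046 normalized counts in controls and 3726, 2252, 10723 and 5004 in mutants. Mutant replicate 4 stood far above the other libraries, and the genotypes overlapped. The log2 fold change was 0.74 (95% interval -0.28 to 1.76), without mutant replicate 4 it was 0.33, and without mutant replicate 3 it was called higher at 1.08. It was 0.13 with both control replicates 1 and 3 left out and 0.07 with both mutant replicates 4 and 5 left out. Eif2ak3 (PERK, of the endoplasmic reticulum) gave 0.18, Eif2ak2 (PKR, activated by double-stranded RNA) 0.31 (-0.03 without mutant replicate 4) and Eif2ak1 (HRI) -0.06, none of them called. Over the alternatives Eif2ak3 ran from -0.07 to 0.3 and Eif2ak2 from -0.63 to 0.64. Eif2ak3 was 0.07 without control replicate 1 and 0.01 after adjustment for transcript length. The median of the kinases, 0.24, was below 0 with both control replicates 1 and 3 (-0.04) or both mutant replicates 4 and 5 (-0.10) left out, the latter also a setting chosen after seeing the data.

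The factors that choose the start codon and join the subunits were 8 tested genes with a median log2 fold change of -0.10, of which 6 were below 0. Eif1b, a copy of the start-codon fidelity factor eIF1, had 4139, 3197, 1494 and 1519 normalized counts in controls and 1783, 1349, 1280 and 1475 in mutants. Control replicate 3 and the library labelled control replicate 1 were highest, while control replicates 4 and 5 lay among the mutants. Its log2 fold change was -0.68 (95% interval -1.41 to 0.05), uncalled by limma in all 8 libraries and called lower by edgeR, by DESeq2, and by limma without control replicate 4 (-0.90) or control replicate 5 (-0.89). It was -0.41 without control replicate 1, -0.37 with library weights and -0.05 with both control replicates 1 and 3 left out. Eif1 gave -0.30, Eif6 -0.22, Eif5 -0.01, Eif5b -0.06, Eif1ax 0.05 and Eif1a 0.15.

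eIF3, the scaffold that holds the small subunit, had 13 rows, of which 11 were below 0 and 1 was called. The called subunit was Eif3f (chr7:108934414-108942951, mm10), with 4592, 4305, 2085 and 2594 normalized counts in controls and 2520, 2240, 1736 and 1723 in mutants. The library labelled control replicate 1 and control replicate 3 were high, control replicate 4 lay below mutant replicates 2 and 3, and the genotypes overlapped. Controls averaged 3394 ± 1241 (SD, n = 4) against 2054 ± 393 (SD, n = 4) for mutants, and the log2 fold change was -0.67 (standard error 0.28, 95% interval -1.28 to -0.05), 1.59-fold lower, with a limma adjusted p of 0.58. The call was lost without control replicate 1 (-0.49), control replicate 3 (-0.53), mutant replicate 4 (-0.59) or mutant replicate 5 (-0.59), and with both control replicates 1 and 3 left out the log2 fold change was -0.20. It was also uncalled with both mutant replicates 4 and 5 left out (-0.44), with library weights (-0.52) and with eBayes without trend.

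The lowest log2 fold change in the complex belonged to Eif3k, a small outer subunit, with 2754, 2725, 1118 and 793 normalized counts in controls and 1009, 1401, 681 and 783 in mutants. Control replicates 4 and 5 lay within the range of the mutants, and at -0.78 (95% interval -1.70 to 0.13) it was uncalled by limma in all 8 libraries and called lower by DESeq2 (-0.90) and without control replicate 5 (-1.12). It gave -0.53 without control replicate 1 or control replicate 3 and -0.01 with both left out. Further subunits of the octameric core gave -0.52 (Eif3m), -0.44 (Eif3h), -0.34 (Eif3e), -0.11 (Eif3l) and -0.10 (Eif3c). The largest core subunit, Eif3a, had 15021, 10850, 16943 and 17622 in controls and 14576, 13953, 21484 and 21325 in mutants. Mutant replicates 4 and 5 were highest and control replicate 3 lowest, with a log2 fold change of 0.23 (95% interval -0.29 to 0.76), 0.08 without control replicate 3 and -0.06 with both mutant replicates 4 and 5 left out. Eif3b, the RNA-binding subunit that joins Eif3g and Eif3i, gave 0.24 (95% interval -0.22 to 0.69), where Eif3g gave -0.26 and Eif3i -0.50. Eif3b was 0.13 without control replicate 3 and 0.05 with both control replicates 1 and 3 left out. After adjustment for transcript length Eif3b gave 0.24, Eif3g 0.11 and Eif3i -0.14. Eif3d, which can itself contact the cap, gave -0.28. Eif3j1 and Eif3j2 share 1 row in the table and gave -0.19.

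None of the 12 eIF4 genes tested was called. Eif4a2, a copy of the eIF4A helicase, had 5213, 6846, 4893 and 3379 normalized counts in controls and 3368, 3379, 3433 and 3639 in mutants. The mutants were close together at the level of control replicate 5, which lay inside their range, and the other controls lay above all of them. The log2 fold change was -0.51 (standard error 0.22), 1.43-fold lower and so under the fold threshold, and it was called without control replicate 5 (-0.69). It gave -0.36 without control replicate 3 and -0.24 with both control replicates 1 and 3 left out. Eif4a1, the other copy, gave -0.37 (95% interval -0.92 to 0.18), and 0.02 with both control replicates 1 and 3 left out. Eif4e, the cap-binding subunit, gave -0.26 (95% interval -0.96 to 0.45), -0.05 without control replicate 1 and 0.24 with control replicates 1 and 3 both left out.

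The scaffold eIF4G ties the cap, the helicase and eIF3 together. Eif4g2, a relative without the cap-binding site, had 12361, 12635, 18736 and 17261 normalized counts in controls and 18763, 17345, 25395 and 24051 in mutants. Lowest were the library labelled control replicate 1 and control replicate 3, with mutant replicates 4 and 5 highest and control replicate 4 just under mutant replicate 2. Its log2 fold change was 0.49 (95% interval -0.00 to 0.99), and it was called higher after quantile normalization (0.60) and without control replicate 4 (0.60) or mutant replicate 3 (0.59). It gave 0.23 with both control replicates 1 and 3 left out and 0.27 with both mutant replicates 4 and 5 left out. Eif4g1 had 4564, 6026, 11284 and 11851 in controls and 8605, 8397, 13656 and 13108 in mutants, which gave 0.45 (95% interval -0.27 to 1.18). Eif4g3 had 7675, 8020, 14465 and 15281 in controls and 9545, 10463, 18011 and 17161 in mutants, which gave 0.30 (95% interval -0.39 to 0.98). In both genes the libraries formed the same ascending pairs, control replicates 1 and 3, then mutant replicates 2 and 3, then control replicates 4 and 5, then mutant replicates 4 and 5. With both control replicates 1 and 3 left out, Eif4g1 gave -0.12 and Eif4g3 -0.17, and Eif4g3 gave -0.11 with both mutant replicates 4 and 5 left out, although mutants lay above controls inside each of those pairs.

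The row that joins Eif4ebp3 with its overlapping neighbour Ankhd1 gave 0.43, and Eif4enif1, the eIF4E transporter, 0.23. The eIF4E-binding proteins left out by the choice of genes gave -0.07 for Eif4ebp1 and 0.51 (95% interval -0.10 to 1.12) for Eif4ebp2, neither called.

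**Figure D3:**
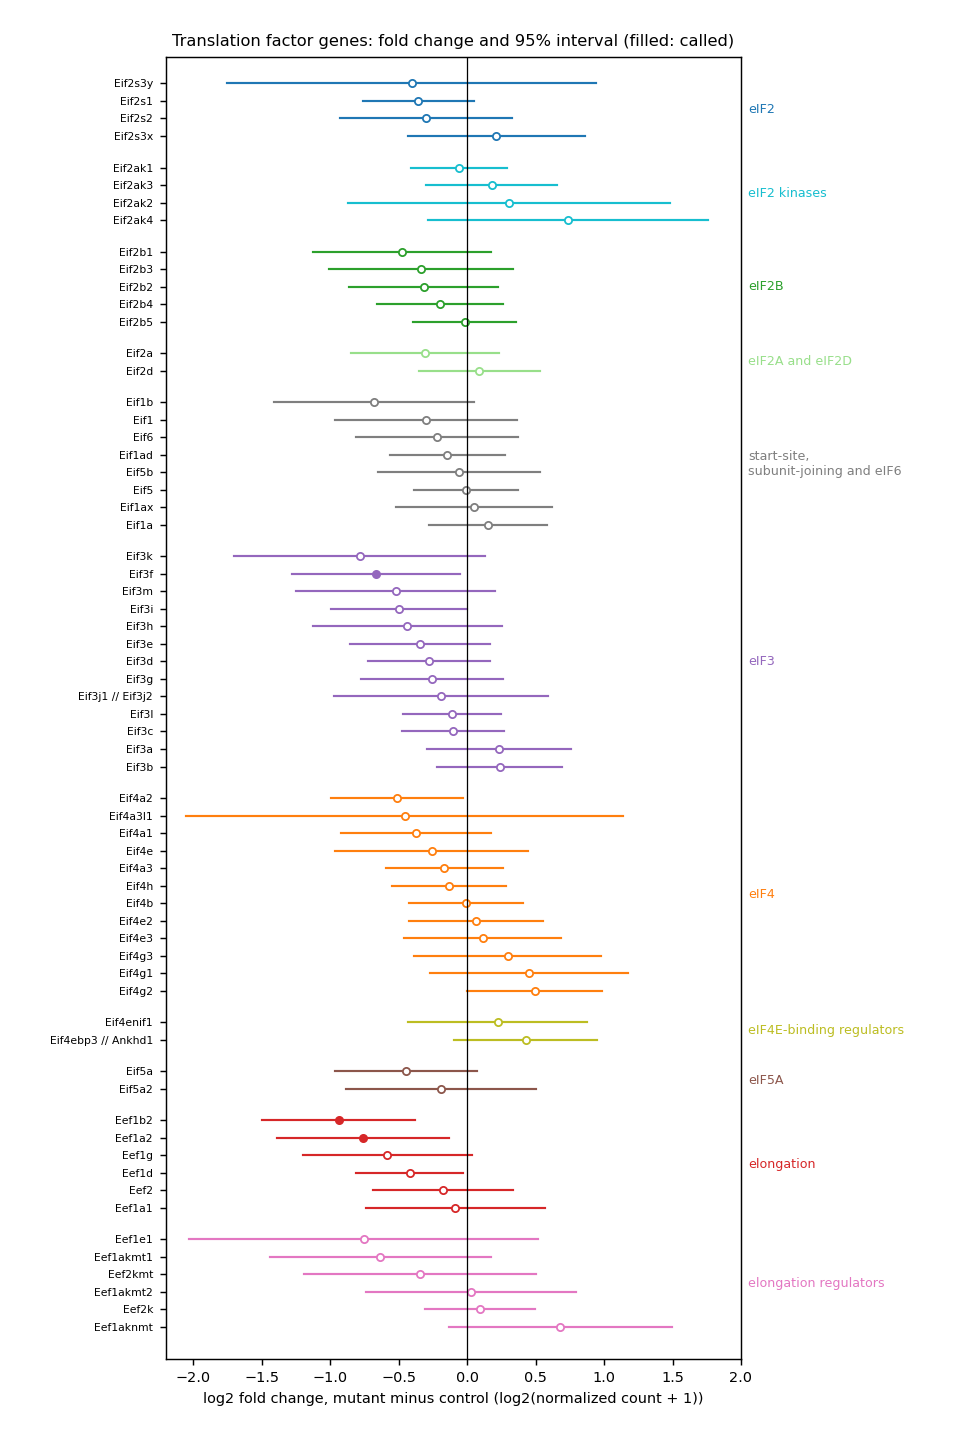
Log2 fold change (mutant minus control, horizontal axis) of the 64 factor genes tested with its 95% interval from limma, grouped by factor complex, with filled points for the 3 called genes (Eef1b2, Eef1a2 and Eif3f). All 6 elongation genes lie below 0, from -0.94 to -0.08 (Eef1a1 and Eef2 lay above 0 after quantile normalization), and most intervals cross 0.

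The elongation factors were the group with the lowest median, -0.50, and all 6 genes were below 0 in the limma fit, though Eef1a1 (0.18) and Eef2 (0.11) were above 0 after quantile normalization. Eef1b2 (chr1:63176831-63180486, mm10), which encodes a nucleotide exchange subunit of eEF1B, had 3419, 3414, 1736 and 1979 normalized counts in controls and 1453, 1341, 1232 and 1234 in mutants. Every mutant lay below every control, mutants were close together, and controls formed a higher and a lower pair. Controls averaged 2637 ± 906 (SD, n = 4) against 1315 ± 105 (SD, n = 4) for mutants, and the log2 fold change was -0.94 (standard error 0.26, 95% interval -1.50 to -0.38), 1.92-fold lower. The limma adjusted p was 0.58, and over the alternatives it ran from 0.0951 (DESeq2) to 0.916. Eef1b2 was called without any single library, and with both control replicates 1 and 3 left out it was not (-0.50).

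The partners of Eef1b2 in eEF1B were not called. Eef1d, the other exchange subunit, had 2371, 2076, 1873 and 2266 normalized counts in controls and 1541, 1708, 1706 and 1457 in mutants. Here too every mutant lay below every control, and the controls did not split into pairs. At a log2 fold change of -0.42 (95% interval -0.81 to -0.03), 1.34-fold lower, it missed the fold threshold. Eef1g, the structural subunit, had 4024, 4004, 2177 and 2189 in controls and 2507, 2395, 1626 and 1564 in mutants. Control replicates 4 and 5 lay below mutant replicates 2 and 3, and the log2 fold change was -0.58 (95% interval -1.20 to 0.03). It was called without control replicate 4 (-0.73), control replicate 5 (-0.73) or mutant replicate 2 (-0.70). It gave -0.43 without control replicate 1, -0.44 without control replicate 3, -0.14 with both left out and -0.27 with both mutant replicates 4 and 5 left out.

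eEF1A has a form found in most cells, Eef1a1, and a form of mature neurons and muscle, Eef1a2. Eef1a2 (chr2:181141306-181157015, mm10) had 3808, 5263, 3603 and 2443 normalized counts in controls and 2753, 2874, 1667 and 1621 in mutants. Control replicate 5 lay below mutant replicates 2 and 3, and mutant replicates 4 and 5 were lowest. Controls averaged 3779 ± 1157 (SD, n = 4) against 2229 ± 677 (SD, n = 4) for mutants, at a log2 fold change of -0.76 (standard error 0.28, 95% interval -1.39 to -0.14), 1.69-fold lower, and a limma adjusted p of 0.58. The call was lost without control replicate 3 (-0.58), mutant replicate 4 (-0.64) or mutant replicate 5 (-0.62), and with both control replicates 1 and 3 (-0.46) or both mutant replicates 4 and 5 (-0.37) left out. It was also lost with eBayes without trend.

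Eef1a1 had 64516, 66439, 40194 and 44107 normalized counts in controls and 61945, 68929, 39544 and 35579 in mutants. Each genotype had a high pair of libraries and a low pair, and the genotypes overlapped (log2 fold change -0.08, 95% interval -0.74 to 0.57). It was above 0 without control replicate 1 (0.01), control replicate 3 (0.03), mutant replicate 4 (0.02) or mutant replicate 5 (0.07), and further above it with both control replicates 1 and 3 (0.23) or both mutant replicates 4 and 5 (0.32) left out. Processed copies of Eef1a1 elsewhere in the genome may share its reads. Eef2, the translocase, had 73939, 81595, 68273 and 73942 in controls and 75047, 77377, 57825 and 55685 in mutants, with mutant replicates 4 and 5 lowest (-0.18, 95% interval -0.69 to 0.34, and 0.04 with both left out).

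**Figure D4:**
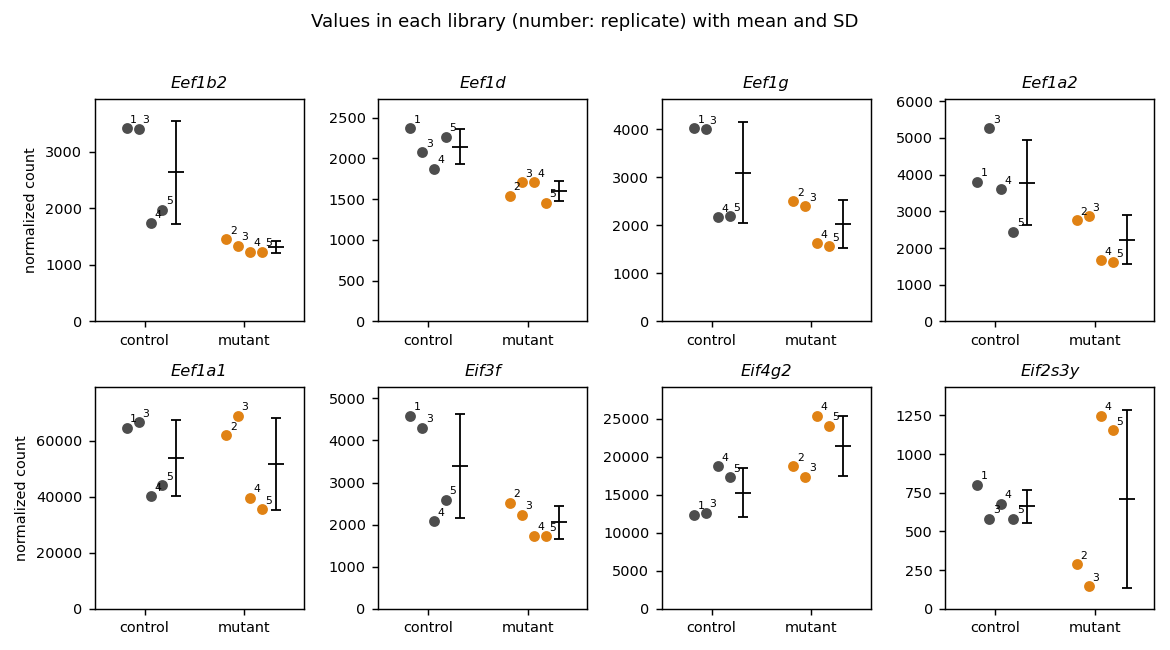
Normalized counts of 8 factor genes in each library (grey points, controls; orange points, mutants; numbers give the replicate), with the mean and SD of each genotype beside them and every vertical axis starting at 0. For Eef1b2 and Eef1d every mutant point lies below every control point, Eef1a1 shows a high and a low pair in each genotype, and Eif2s3y is spread widely among mutants (144 to 1249).

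Genes that act on the elongation factors gave scattered values. Eef2k, the kinase that inactivates eEF2, had 2712, 2147, 2639 and 2856 normalized counts in controls and 2279, 2907, 2935 and 2927 in mutants, with 1 low library in each genotype. Its log2 fold change was 0.09 (95% interval -0.31 to 0.50), 0.01 without control replicate 3 and -0.16 after adjustment for transcript length. Eef1e1, a scaffold of the tRNA synthetase complex, gave -0.76 (95% interval -2.03 to 0.52), with single values from 185 to 1746. The methyltransferase genes of eEF1A and eEF2 ran from -0.63 (Eef1akmt1) to 0.68 (Eef1aknmt), and Eef1aknmt was called higher with library weights and without control replicate 5. Eif5a, which relieves ribosomes stalled in elongation, had 21805, 21470, 12891 and 13486 normalized counts in controls and 12534, 14834, 11902 and 10596 in mutants. The library labelled control replicate 1 and control replicate 3 were high, the rest overlapped, and the log2 fold change was -0.45 (95% interval -0.97 to 0.07), and -0.09 without both.

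Pairs of related genes were compared inside each library, which removes any scaling of the library as a whole but not differences in the cells that gave the RNA. The log2 ratio of Eef1a2 to Eef1a1 was -4.08, -3.66, -3.48 and -4.17 in controls and -4.49, -4.58, -4.57 and -4.45 in mutants. Every mutant ratio lay below every control ratio, and the mutants were close together. The means were -3.85 ± 0.33 (SD, n = 4) and -4.52 ± 0.06 (SD, n = 4), and a two-sided exact permutation test gave p = 0.0286, the smallest that 4 libraries against 4 allow. Adjusted over the 6 pairs compared it was 0.172, and no pair passed 0.05. Eef1a2 was already called lower in these same libraries, so its ratio is not a separate line of evidence. The difference ran from -0.78 to -0.55 when single libraries were left out.

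In the other pairs the genotypes overlapped. The log2 ratio of Eif1b to Eif1 was -1.58, -1.36, -1.56 and -1.72 in controls and -1.56, -1.93, -2.22 and -2.03 in mutants, so mutant replicate 2 lay among the controls (exact permutation p = 0.0857, adjusted 0.257). Mutant minus control differences in log2 ratio were -0.16 for Eif4g3 over Eif4g1, -0.14 for Eif4a2 over Eif4a1, 0.32 for Eif4e2 over Eif4e and 0.26 for Eif5a2 over Eif5a, with adjusted exact permutation p-values from 0.458 to 0.514. The log2 ratio of Eif4g3 to Eif4g1 lay between 0.15 and 0.41 in 7 libraries and was 0.75 in the library labelled control replicate 1.

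The fold changes of the factor genes were ordered by transcript length. GENCODE gave a length for 60 of the 64, and the Spearman correlation between length and log2 fold change was 0.68 across these genes, where it was 0.37 across the 15183 tested genes with a length. Genes are not independent replicates, and all points share the same 8 libraries. Of the 12 factor genes under 1500 bases, 11 were below 0, with a median of -0.47. The 2363 genes of that length had a median of -0.45, and 77.1% of them were below 0. The 28 of 1500 to 3000 bases had a median of -0.30 (all genes -0.14), and the 20 over 3000 bases 0.07 (all genes 0.17). Below 0 were 23 of the 28 (61.3% of all genes of that length) and 9 of the 20 (36.2%). The 12 shortest had median deviations from their 8-library means of 0.75, 0.55, -0.20 and -0.30 in controls and -0.04, -0.00, -0.33 and -0.39 in mutants. The library labelled control replicate 1 and control replicate 3 were highest for short transcripts, and the part of this in the values of the factor genes was not tested.

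When each library's log2 values were adjusted for length by a loess curve, a setting chosen after seeing the data, the median of the 60 factor genes was -0.12 instead of -0.19, where that of all genes with a length was -0.02 in both. Below 0 were 37 of the 60 (61.7%) instead of 43 (71.7%), where all genes with a length gave 51.5% instead of 51.6%. Eef1b2 (-0.78), Eef1a2 (-0.63) and Eif3f (-0.61) were still called, while Eif3k gave -0.32, Eif1b -0.30, Eif4a2 -0.18 and Eif4g2 0.23. Eef1a1 turned above 0 at 0.11, as did Eif3g (0.11), Eif4a3 (0.10), Eif3l (0.05), Eif6 (0.04), Eif1 (0.01), Eif2b4 and Eif2b5. Eif1ax (-0.17) and Eef2k (-0.16) turned below 0.

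**Figure D5:**
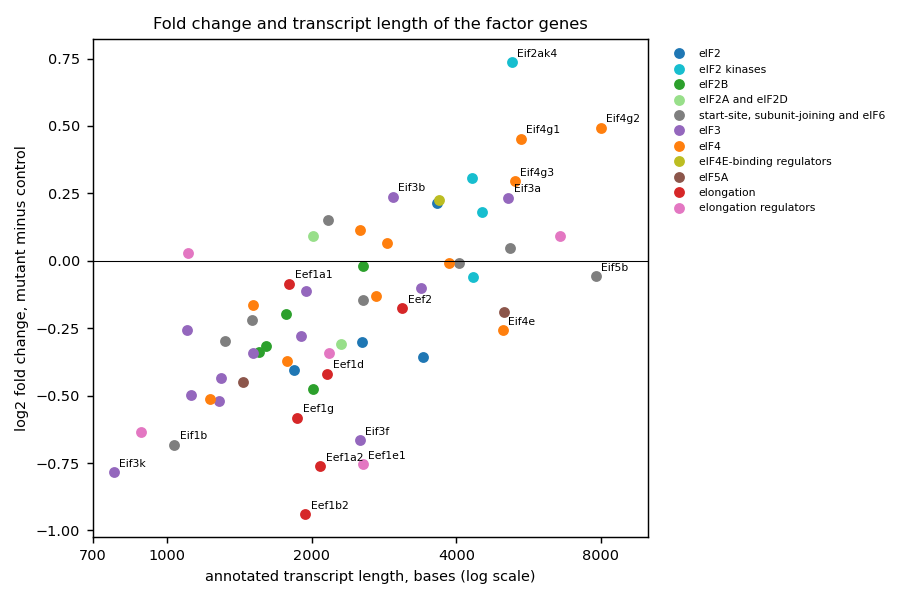
Annotated transcript length in bases (horizontal axis, log scale) and log2 fold change (mutant minus control, vertical axis) of the 60 factor genes with a length, coloured by factor group. Points rise from left to right (Spearman correlation 0.68), and Eef1b2 is the lowest of all at -0.94.

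Lists of neighbouring pathways were read beside the factors. Of the 31171 genes tested, 3.17% were called lower and 3.98% higher by limma, and 46.6% were below 0. Of 12 cap-binding regulators and poly(A) partners 0 were called by limma in either direction (0 at an unadjusted p of at most 0.05), with a median log2 fold change of 0.00. Of 8 genes of eIF2 recycling, reinitiation and the integrated stress response 1 was called lower and 0 higher. This was Denr, a reinitiation factor, with 1776, 1834, 879 and 1066 normalized counts in controls and 941, 986, 749 and 819 in mutants. Control replicate 4 lay below mutant replicates 2 and 3, and the log2 fold change of -0.61 lost its call in 15 of 21 alternatives, among them the omission of control replicate 1 (-0.46), control replicate 3 (-0.45) or any mutant (replicate 2 -0.64, replicate 3 -0.67, replicate 4 -0.53, replicate 5 -0.58). Its partner Mcts1 gave -0.76 (95% interval -1.61 to 0.08). Atf4, the transcription factor whose translation rises when eIF2 is phosphorylated, gave -0.53 (95% interval -1.08 to 0.03), and all 4 mutants lay above all 4 controls for Ppp1r15b, which directs a phosphatase to eIF2 (0.78, 95% interval -0.01 to 1.58).

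Of 9 mitochondrial translation factors 8 were below 0, and 1 was called lower. Tufm, the mitochondrial counterpart of eEF1A, had 2473, 2556, 1760 and 1442 normalized counts in controls and 1707, 1594, 1017 and 1118 in mutants. Control replicate 5 lay below mutant replicates 2 and 3, and the log2 fold change of -0.59 lost its call in 12 of 21 alternatives, among them the omission of control replicate 1 (-0.49), 3 (-0.48) or 4 (-0.65) and of mutant replicate 4 (-0.47) or 5 (-0.51). Gfm1, the mitochondrial translocase, had 3433, 4213, 3565 and 2951 in controls and 2430, 2366, 2746 and 2078 in mutants. The genotypes did not overlap, and at -0.55 (95% interval -0.96 to -0.15) it was under the fold threshold.

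The 19 cytosolic aminoacyl-tRNA synthetases, which supply eEF1A, had a median of -0.17 with 14 below 0 and 0 called by limma in either direction (3 at an unadjusted p of at most 0.05, all lower). At that limma p, 1175 of the 31171 genes tested were lower and 1421 higher. Among 6 hypusine and diphthamide enzymes 0 were called by limma (1 at an unadjusted p of at most 0.05). This was Dhps, which starts the modification of eIF5A, with 1888, 2058, 1912 and 2017 normalized counts in controls and 1271, 1343, 1529 and 1660 in mutants. The genotypes did not overlap, and the log2 fold change was -0.45 (95% interval -0.84 to -0.05), 1.36-fold lower. The 6 genes of termination and ribosome rescue had a median of 0.16 and 0 called by limma (0 at an unadjusted p of at most 0.05).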

How the data were processed

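The authors mapped paired-end reads to mm10 (STAR 2.4.0) and counted, for every Fast DB gene, reads in its constitutive regions. The deposited unit is a signal, these counts scaled by the size factor DESeq2 gave the library. SMARTer libraries were made from low-input RNA of anti-HA pulldowns of cortical synaptosomes. Dividing each library by its smallest value above 0 gave whole reads for 100% of values (tolerance 0.01), which give the depth and the count tests. Genes averaging 10 or more in either genotype were fitted in all 8 libraries with limma 3.58.1 (lmFit, eBayes with trend) on log2(value + 1) in R 4.3.3, with no covariate and Benjamini-Hochberg adjustment over all genes tested. Calls needed a 1.5-fold difference and unadjusted p no higher than 0.05, which the study also used. No per-sample column was left unused (0). Alternatives were pseudocounts, filters, quantile normalization, limma settings, edgeR 4.0.16 and DESeq2 1.42.0 on recovered reads, a replicate block, single libraries left out and, chosen after seeing the data, both control replicates 1 and 3 left out, both mutant replicates 4 and 5 left out, and adjustment for transcript length. The code was tested on simulated data. Ratios of related genes and the log2 values of Erbb4 were tested by exact permutation. Lengths are those of the GENCODE M21 transcript with the longest coding sequence. The genes and lists were chosen with earlier results of these data known. Genes named were Erbb4, called genes, the lowest and highest of eIF2, eIF2B, eIF3, eIF4 and elongation, fixed core subunits, and called genes of related pathways, and the remaining names were chosen after their values were seen. Reads of processed copies and overlapping genes may be split or shared in the authors' counts.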

Additional observations from a re-analysis of the deposited data

Results flagged for a closer look

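In 7 of 130 groups of 4 libraries, over the 64 factor genes tested and Erbb4, 1 library stood far from the other 3. Chance gives about 1 in 20 groups, or 6.5 of 130. Control replicate 3 was high for Eif5a2 (1949, others 743 to 910) and for Eif4h (22436, others 15714 to 16417). The library labelled control replicate 1 was high for Eif2b4 (5406, others 3209 to 3429). Control replicate 4 was high for Eif2a (1695, others 1198 to 1272). Among mutants, replicate 4 was high for Eif3d (7093, others 5904 to 6083), replicate 3 was high for the low-count gene Eif4a3l1 (36.0, others 13.7 to 16.9) and replicate 2 was low for Eef2k (2279, others 2907 to 2935). No library was apart in more than 2 genes.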

How the results depend on the processing

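Erbb4 stayed lower and called in 20 of 21 alternatives and was -0.96 and uncalled without both mutant replicates 4 and 5. Factor genes called lower, 3 with limma in all 8 libraries, were 1 with eBayes without trend, 5 with DESeq2, 1 at an unadjusted p of at most 0.01, 0 at an adjusted p under 0.05 and 0 without both control replicates 1 and 3. Of all genes tested, 3.17%, 2.31%, 5.05%, 0.456%, 0.0449% and 1.51% were called lower in these settings, in the same order. Leaving out 1 library at a time gave 1 to 10 called lower and 0 to 2 called higher. The shares of all genes ran from 1.65% to 6.35% called lower and from 1.98% to 5.75% called higher. Factor genes called higher, 0 with limma in all 8 libraries, were 1 without a filter (Eef1akmt3), 1 after quantile normalization (Eif4g2) and 1 with library weights (Eef1aknmt). Of all genes tested, 3.98%, 3.55%, 4.26% and 6.41% were called higher in these settings, in the same order. The median log2 fold change was below 0 in all 21 alternatives, from -0.26 to -0.01, the latter (-0.0053) without both control replicates 1 and 3. Differences in the 6 ratios of related genes kept their sign in all 10 alternatives, but some were small in them, at 0.01 for Eif5a2 over Eif5a and 0.15 for Eif4e2 over Eif4e without control replicate 1 and -0.03 for Eif4a2 over Eif4a1 without control replicate 4. The cause of these changes was not tested. Libraries with the same replicate number deviated together only weakly (correlations of 0.10, 0.098 and 0.082 for numbers 3, 4 and 5), and 2 of the 3 shared numbers gave a control its best match. Whatever their number, control replicates 1 and 3 correlated above 0 with mutant replicates 2 and 3 (0.0226 to 0.10) and below 0 with mutant replicates 4 and 5, while control replicates 4 and 5 did the opposite (0.0815 to 0.098 with mutant replicates 4 and 5). These are correlations across the 31171 genes, which are not independent, and leaving out both control replicates 1 and 3, or both mutant replicates 4 and 5, makes these pairs unequal between genotypes. With the replicate block, 4 factor genes were called lower (Eef1e1 in addition) and 0 higher. Of all genes tested, 5.51% were then called lower and 4.64% higher (3.17% and 3.98% without the block). Eif4g2 was higher with the block (0.46, unadjusted limma p 0.00749) but under the fold threshold. Control replicate 1 and mutant replicate 2 share their number with no other library. Fold changes with the block therefore rest on numbers 3, 4 and 5. The lowest adjusted p of a factor gene was 0.124 (0.58 without the block). The median of the factor genes was -0.09, Eif2b5 was 0.08 and Erbb4 was -1.68. In all genes the share of calls that were lower was 44.3% with limma, 52.9% with edgeR and 55.5% with DESeq2.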
